A study of Homo sapiens with 6 samples.

Results

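A set of 10 genes of the canonical Wnt pathway was followed after depletion of the transcription factor SOX4 in MDA-MB-231, a mesenchymal line derived from human breast cancer. They were the TCF/LEF transcription factors LEF1, TCF7, TCF7L1 and TCF7L2, their partner beta-catenin (CTNNB1), the pathway inhibitors and feedback genes AXIN1, AXIN2, DKK1 and RNF43, and the reported target MYC. Probes were taken by gene symbol, which gave 25 of the 47322 probes and 10 of the 31424 genes on the Illumina HumanHT-12 v4 chip. The control cells carried a short hairpin RNA (shRNA) of scrambled sequence and the others 1 hairpin against SOX4, shSOX4#1, and total RNA of each group was hybridised to 3 arrays. Both groups were grown in the same serum-containing medium. A pair of scrambled arrays carries the same heading, that of replicate 2, and these are called scrambled 2a and 2b. Nothing in the labels tells whether replicates were separate cultures. The p-values thus reflect the spread of these 6 samples alone, and that spread may be technical. With a single hairpin, an effect of SOX4 loss cannot be told apart from an effect of that hairpin.

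In the absence of a Wnt signal, a complex built on AXIN1 or AXIN2 marks beta-catenin for destruction. When Wnt binds Frizzled and LRP receptors, beta-catenin accumulates, enters the nucleus and binds TCF/LEF proteins, which hold the DNA and recruit either activators or TLE co-repressors. AXIN2, RNF43 and DKK1 are themselves reported targets and dampen the signal, and LEF1 is a reported target that encodes a DNA-binding partner of beta-catenin. SOX proteins carry the same kind of DNA-binding domain, the HMG box, as TCF/LEF proteins.

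Between 15197 and 16187 probes were detected per array, with a median deposited intensity of 119 to 124, and precision is limited by having 3 arrays per group. Across probes above background, which are not independent of each other, arrays of 1 group correlated at 0.994 or above. Arrays of different groups correlated at 0.982 or below. The deposited intensity of SOX4 was 290.5, 357 and 336 on the scrambled arrays and 136, 155 and 146 on the SOX4 shRNA arrays, a normalized log2 difference of -2.43 ± 0.14 (SE, n = 3 per group, limma adjusted p = 4.1e-13). All 6 markers of the line on the list used, among them VIM, CD44 and KRT18, were detected. Of 6 luminal and epithelial markers, ESR1, PGR, CDH1 and FOXA1 were detected on no array, ERBB2 on all 6, and GATA3 on 2 scrambled and 3 SOX4 shRNA arrays. T cells express LEF1 and TCF7, but none of 10 leucocyte markers, PTPRC and CD3D included, was detected on any array. The summed deposited intensity, not normalized, of the leucocyte probes was 1860 to 1904 on the scrambled and 1908 to 1990 on the SOX4 shRNA arrays. That of the fibroblast probes was 1269 to 1336 and 1347 to 1412, and that of the line's own markers 69411 to 75685 and 77512 to 79147. The sums of the luminal and of the endothelial probes overlapped between the groups. Array medians were 119.0, 122.0 and 118.9 on the scrambled and 121.4, 121.6 and 124.3 on the SOX4 shRNA arrays. None of 5 endothelial markers was detected. Of 5 fibroblast markers only COL1A2 was detected on all arrays, at a log2 difference of 1.11 (limma adjusted p = 9.3e-05), and LUM on the 3 SOX4 shRNA arrays. The part of these differences in the results below was not tested.

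The upstream sequence of a gene that fell is shown with that of a gene whose promoter holds TCF/LEF cores, as RefSeq gives it on GRCh38.p14. Each line is the 250 bases before a transcription start, 5′ to 3′ on the gene's strand. Capitals mark TCAAAG, the core bound by TCF/LEF proteins (with 1 more capital base where it is part of the longer form ATCAAAG or TTCAAAG), and the SOX-type core ACAAAG, on either strand.
LEF1: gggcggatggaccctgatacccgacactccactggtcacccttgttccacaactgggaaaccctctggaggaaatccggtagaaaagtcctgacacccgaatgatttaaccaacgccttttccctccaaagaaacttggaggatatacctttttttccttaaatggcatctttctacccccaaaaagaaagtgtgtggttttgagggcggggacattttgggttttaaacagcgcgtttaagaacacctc
DKK1: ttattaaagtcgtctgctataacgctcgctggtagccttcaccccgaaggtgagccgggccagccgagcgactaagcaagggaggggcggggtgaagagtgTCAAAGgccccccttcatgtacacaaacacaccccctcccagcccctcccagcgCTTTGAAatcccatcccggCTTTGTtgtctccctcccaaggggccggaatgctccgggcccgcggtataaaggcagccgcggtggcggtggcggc
The LEF1 window is chr4:108166302-108166551, minus strand, and its start site lies 2631 bases inside the gene from the 5′ end of its longest extent. The DKK1 window is chr10:52314031-52314280, plus strand. The DKK1 window held 2 TCF/LEF cores, 149 and 95 bases before the start, the second on the minus strand in its longer form, and 1 ACAAAG on the minus strand at 76 bases. TCAAAG stands in 11.2% of 35116 RefSeq promoter windows of this length and ACAAAG in 13.7%, both strands searched, and the longer TCF/LEF form in 5.94%. None of these letters, nor the second SOX-type core AACAAT (8.98% of windows), stands in the LEF1 window, which says nothing of TCF, LEF or SOX4 binding to the gene. In all, 8 of the 10 genes had 12 entries. AXIN2 and MYC had none, so their promoters were not searched. No TCF/LEF core stood in the entries of TCF7, TCF7L1, TCF7L2, CTNNB1, AXIN1 or RNF43. ACAAAG stood in 1 entry of TCF7, 1 of TCF7L2 and both of RNF43, and AACAAT in 1 of TCF7L2. As with LEF1, some of these start sites lie inside the gene. They lie 7395 and 15400 bases from the 5′ end for TCF7 and 14813 for 1 entry of RNF43. For TCF7L2 such sites lie at 176386, the entry with ACAAAG, and at 179024.

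Of the 10 genes, 6 could be measured. LEF1, CTNNB1, AXIN1, AXIN2, DKK1 and MYC each had a probe whose detection p was below 0.01 on 3 or more arrays, the condition for being kept. LEF1 and AXIN2 fell, MYC and AXIN1 rose, and CTNNB1 and DKK1 did not pass the test. That is 4 of 6, or 66.7%, called at an adjusted p under 0.05 in limma, where 30.6% of the 12451 genes and unnamed probes tested were called, 15.2% higher and 15.4% lower. The groups did not overlap for 5 of the 6, all but CTNNB1, against 42.0% of all rows tested. By probe, 6 of 10 passed, 3 up and 3 down, against 28.9% of the 15717 probes above background. The median log2 difference of the 6 genes was -0.0037, and that of all rows tested was -0.0093. Genes that reached the filter in 1 group only had to differ, so these shares do not describe all 10 genes. LEF1 was detected on all 3 scrambled arrays but on only 1 SOX4 shRNA array. The 10 genes were also chosen with earlier results of these data known, so the shares are no test of the set.

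**Figure D1:**
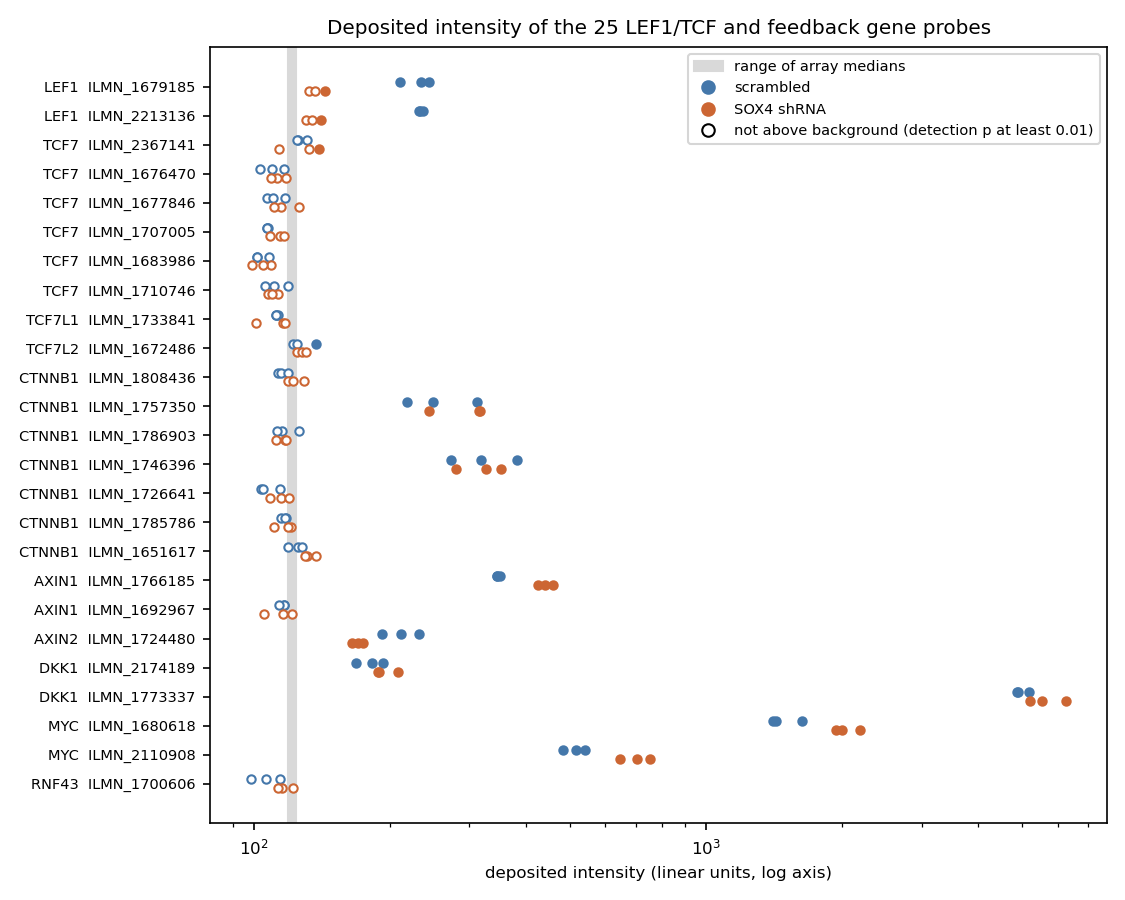
Deposited probe intensity (linear units on a log axis) of the 25 probes on the 3 scrambled arrays (blue) and the 3 SOX4 shRNA arrays (orange), each point 1 array. Open points are not above background, and the grey band is the range of the array medians, 119 to 124. The 15 probes not kept lie between 98.7 and 139, while LEF1, AXIN1, AXIN2 and MYC each have a probe whose groups are apart.

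LEF1, which encodes the DNA-binding partner of beta-catenin, fell more than any of the other measured genes of the set. Its probe ILMN_1679185 read 211, 244 and 235 in deposited intensity on scrambled 1, 2a and 2b, and 144, 133 and 136 on SOX4 shRNA 1, 2 and 3. All scrambled arrays were thus high and all SOX4 shRNA arrays low, and in the latter group only SOX4 shRNA 1 was above background. In normalized log2 signal the means were 7.09 ± 0.12 and 5.21 ± 0.23 (SD, n = 3), a difference of -1.88 ± 0.15 (SE, 95% interval -2.19 to -1.56), or 3.67-fold, with a limma adjusted p of 4.2e-10. A second probe, ILMN_2213136, read 233, 237 and 232 against 141, 130.5 and 135. It gave -2.01 ± 0.15 (SE, n = 3 per group, limma adjusted p over all probes = 1.4e-10), and the 95% intervals of the 2 probes overlapped. Since the SOX4 shRNA signal lay near background, the size depended on how background was treated: -0.84 without background correction and -2.91 in the authors' log2 values, each past the threshold. The authors' deposited table gives LEF1 a fold of 0.13, SOX4 shRNA over scrambled. RNA was taken from whole cultures, so fewer cells with the transcript and less transcript per cell cannot be told apart.

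The genes whose 6 centred log2 values lay nearest to those of LEF1, by Euclidean distance on the background-corrected scale, were ANGPTL4 (distance 0.25), PMEPA1 (0.30), NMU (0.32), MMP1 (0.36) and SERPINE2 (0.39). Their log2 differences ran from -1.88 for SERPINE2 to -1.76 for ANGPTL4. These are descriptions over 6 arrays in 2 groups, and any gene lowered by a like amount lies near LEF1 on this measure.

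No other TCF gene could be compared. TCF7, which encodes a TCF factor best known from T cells, has 6 probes on the chip, and TCF7L1 and TCF7L2, whose products bind the same DNA core, have 1 each. None was kept. With RNF43 these make 9 probes and 54 probe readings, of which 2 were detected: TCF7 probe ILMN_2367141 on SOX4 shRNA 1, at 139, and TCF7L2 probe ILMN_1672486 on scrambled 2b, at 137. The other readings lay at the background level, so a change of these transcripts was not detectable here, and their absence is not shown. Without the detection filter the log2 differences were -0.04 for TCF7, -0.04 for TCF7L1 and -0.12 for TCF7L2, with limma adjusted p of 0.96, 0.88 and 0.86. LEF1 was thus the only TCF/LEF gene of the 4 with a probe above background on all scrambled arrays.

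**Figure D2:**
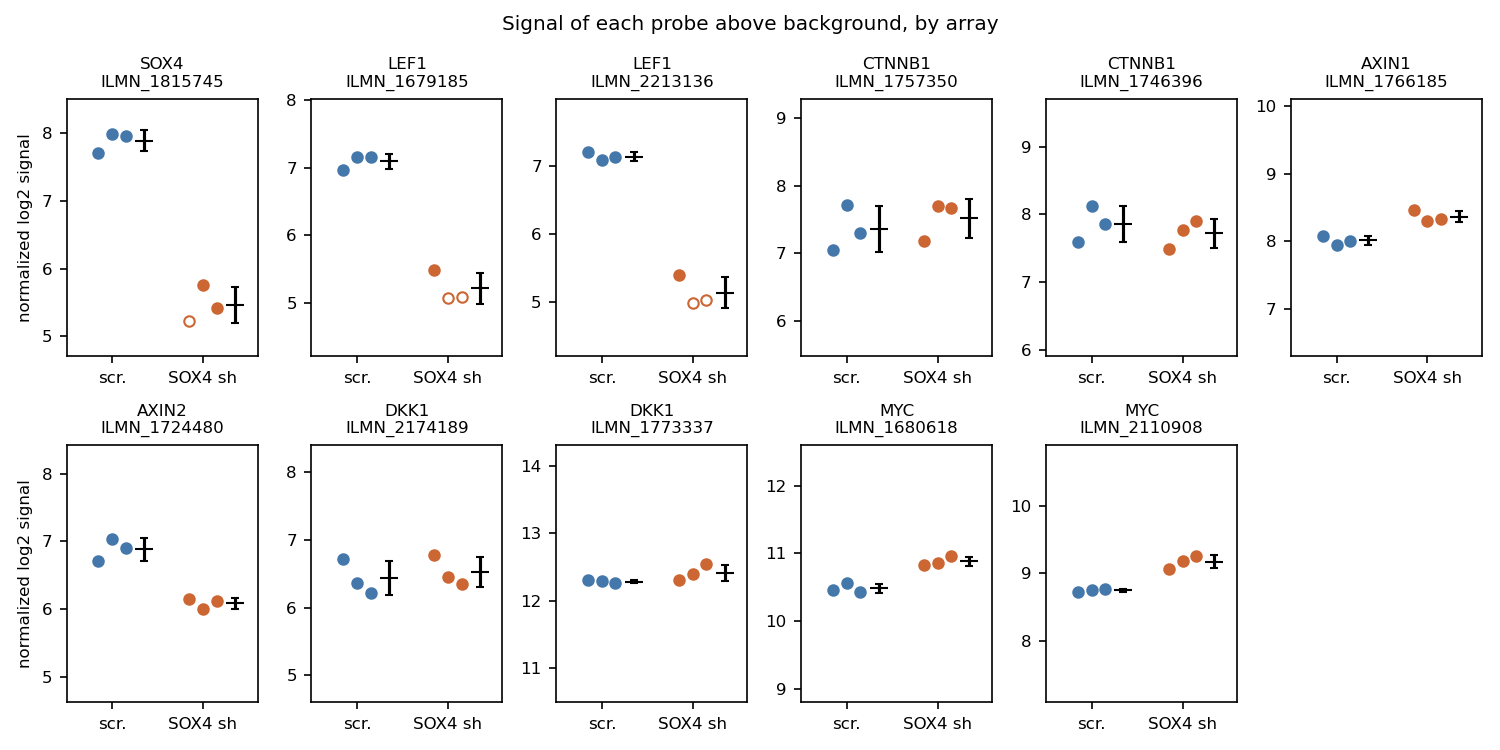
Normalized log2 signal of SOX4 and of each probe above background, 1 panel per probe, on the scrambled arrays (scr., blue) and the SOX4 shRNA arrays (SOX4 sh, orange). Points are arrays, open where the detection p was not under 0.01, bars are the group mean ± SD (n = 3), and every panel spans the same log2 range. The groups stand apart for SOX4, for both probes of LEF1 and of MYC, and for AXIN1 and AXIN2, while those of CTNNB1 overlap.

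CTNNB1, the gene of beta-catenin, has 7 probes, of which 2 were kept, and they gave opposite signs. Probe ILMN_1746396 read 273, 381.5 and 318 on the scrambled arrays and 280, 326 and 352 on the SOX4 shRNA arrays. Its groups overlapped, and the log2 difference was -0.14 ± 0.12 (SE, n = 3 per group, 95% interval -0.38 to 0.11, limma adjusted p = 0.41). Probe ILMN_1757350 read 218, 312 and 249 against 245, 315 and 317, a log2 difference of 0.16 ± 0.14 (SE, 95% interval -0.13 to 0.45, limma adjusted p over all probes = 0.44). The array labelled replicate 1 was lowest in both groups on both probes. The mean of both probes differed by 0.01, and the intervals leave room for a change of CTNNB1 of up to 0.45 on the log2 scale. The array measures transcript and not protein, so the amount of beta-catenin itself was not measured.

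AXIN2, the scaffold of the destruction complex that is induced by Wnt signals, fell with LEF1. Its single probe ILMN_1724480 read 193, 232 and 211.5 on the scrambled arrays and 170.2, 165 and 175 on the SOX4 shRNA arrays, above background on all 6. The lowest scrambled array was above the highest SOX4 shRNA array. The normalized log2 means were 6.88 ± 0.17 and 6.08 ± 0.08 (SD, n = 3), a difference of -0.80 ± 0.13 (SE, 95% interval -1.07 to -0.52), or 1.74-fold, with a limma adjusted p of 4.1e-05. The size was -0.38 without background correction and -1.04 in the authors' log2 values, past the threshold in both. The authors' deposited table gives a fold of 0.5. Nearest to its pattern over the 6 arrays were B3GNT1 (distance 0.16), BHLHB2, now BHLHE40 (0.17), HMOX2 (0.18), USP38 (0.19) and MAGED1 (0.19). In RefSeq the symbol B3GNT1 is a synonym of both B3GNT2 and B4GAT1. All were lower with the SOX4 hairpin, which follows from the choice, since any gene lowered by a like amount lies near AXIN2.

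AXIN1, the constitutive scaffold of the same complex, moved the other way. Probe ILMN_1766185 read 345.1, 349.9 and 344.8 on the scrambled arrays and 458.5, 426 and 441 on the SOX4 shRNA arrays. The groups did not overlap, and the scrambled arrays lay close together. Its normalized log2 difference was 0.35 ± 0.08 (SE, n = 3 per group, 95% interval 0.18 to 0.52), or 1.27-fold, with a limma adjusted p of 0.0023. The other probe, ILMN_1692967, was not detected on any array, with intensities of 106 to 122. In the authors' log2 values, with 1 value per gene symbol, the AXIN1 difference was 0.06 (limma adjusted p = 0.93), and the mean of both probes without a detection filter gave 0.14 (limma adjusted p = 0.55). The rise of AXIN1 therefore rests on 1 probe and is not seen in the authors' values. Without scrambled 2a and 2b together the difference was 0.28 (limma adjusted p = 0.10), with 1 scrambled array left.

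DKK1, a secreted antagonist that binds the LRP co-receptors, was abundant in both groups. Probe ILMN_1773337 read 4888, 5199 and 4913 on the scrambled arrays and 5219, 5532 and 6268 on the SOX4 shRNA arrays. The groups did not overlap, by a narrow margin, but the log2 difference of 0.13 ± 0.06 (SE, n = 3 per group, 95% interval 0.02 to 0.24) did not pass, with a limma adjusted p of 0.076. Without SOX4 shRNA 1 it was 0.18 with a limma adjusted p of 0.021, so that array decides the call. The dimmer probe ILMN_2174189 read 193.5, 183 and 168 against 209, 189.7 and 188, a log2 difference of 0.09 ± 0.15 (SE, limma adjusted p over all probes = 0.70). Its groups overlapped. The DKK1 promoter printed above, with its 2 TCF/LEF cores, thus belongs to a transcript with no change past the threshold. RNF43, a membrane ubiquitin ligase that removes Frizzled from the cell surface, had 1 probe that was detected on no array, with a log2 difference of 0.16 (limma adjusted p = 0.40) when the filter was dropped.

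MYC, a growth-promoting transcription factor and reported Wnt target, rose on both of its probes. ILMN_1680618 read 1406, 1629 and 1433 on the scrambled arrays and 1937, 1999.9 and 2189.6 on the SOX4 shRNA arrays. ILMN_2110908 read 483, 540.1 and 516 against 645, 704.5 and 754. On each probe every SOX4 shRNA array was above every scrambled array. The normalized log2 differences were 0.40 ± 0.06 (SE, n = 3 per group, 95% interval 0.27 to 0.52), or 1.32-fold, with a limma adjusted p of 1.0e-05, and 0.42 ± 0.07 (SE) with a limma adjusted p over all probes of 9.0e-05. MYC moved little with the processing, from 0.36 to 0.43 over 17 alternatives, all past the threshold. The authors' deposited table gives a fold of 1.34. Of the reported Wnt targets in the set, AXIN2 and LEF1 thus fell, MYC rose, DKK1 did not pass and RNF43 could not be measured.

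**Figure D3:**
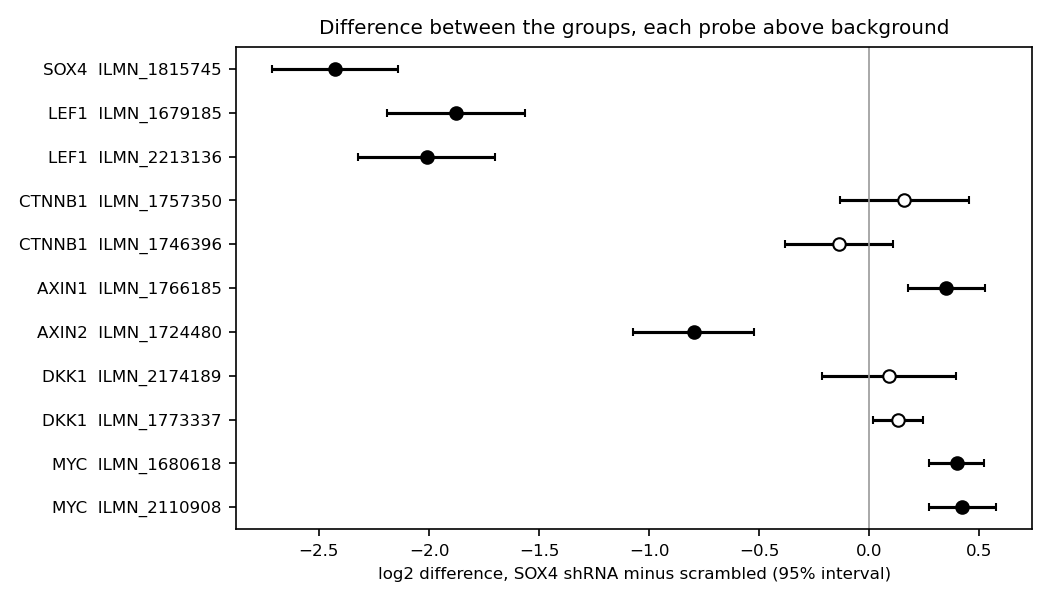
Log2 difference of SOX4 shRNA minus scrambled for SOX4 and each probe above background, with the 95% interval from limma (n = 3 arrays per group). Filled points passed an adjusted p under 0.05 over all probes above background. LEF1 at -1.88 and -2.01 and AXIN2 at -0.80 lie below 0, both MYC probes and AXIN1 lie above it, and the CTNNB1 intervals span 0.

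**Figure D4:**
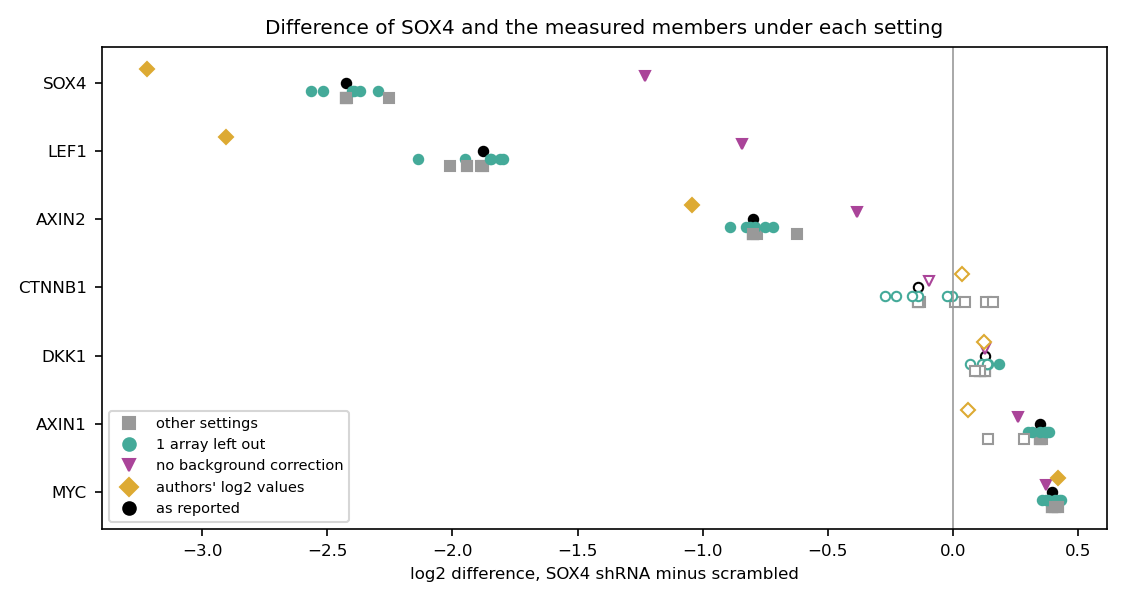
Log2 difference of SOX4 shRNA minus scrambled for SOX4 and the 6 measured genes as reported and under each alternative but the replicate block. Points are filled where the limma adjusted p was under 0.05. LEF1 ran from -2.91 to -0.84 and AXIN2 from -1.04 to -0.38, always filled, while AXIN1 is open in the authors' values and CTNNB1 lies on both sides of 0.

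The wider pathway was described with 6 lists of 135 gene symbols, some of them an older and a newer name of the same gene, of which 65 were measured. These lists, too, were chosen with earlier results of these data known, so their shares are descriptions and no test. Of these, 11 rose and 13 fell, which is 36.9% called beside 30.6% of all rows tested, and the median log2 difference was -0.00060 beside -0.0093. Wnt ligands and their secretion gave 5 measured genes, of which none rose and 2 fell (40%, beside 15.4% of all rows tested). They were PORCN, the enzyme that attaches lipid to Wnt proteins, by -0.71 ± 0.12 (SE, limma adjusted p = 7.2e-05), and GPR177, now WLS, the carrier that brings Wnt to the cell surface, by -0.45 ± 0.07 (SE, limma adjusted p = 9.1e-06). PORCN intensity was 235, 287 and 253 on the scrambled and 195, 193 and 229 on the SOX4 shRNA arrays, without overlap. Without background correction PORCN differed by -0.40. Without SOX4 shRNA 1, 3 genes of this list fell, beside 1658 of all 12206 rows then tested. Among 10 measured receptors, 4 rose (40%, beside 15.2% of all rows tested) and none fell. The count of raised receptors was 1 of 22 in the authors' log2 values, 2 of 10 with no intensity trend and 2 of 22 with no filter and the mean of all probes. Fewer rows rose in all under these settings: 1113 of 34687, 1433 of 12451 and 1219 of 34694, in the same order. The counts of the lists below under these settings stand beside the same lower totals. ROR1, a receptor tyrosine kinase for Wnt ligands, rose by 0.84 ± 0.09 (SE, limma adjusted p = 5.9e-08), FZD4, a Frizzled receptor, by 0.78 ± 0.11 (SE, limma adjusted p = 5.0e-06), and LRP5, a co-receptor, by 0.26 ± 0.08 (SE, limma adjusted p = 0.013). FZD4 intensity was 198, 206 and 198 on the scrambled and 279, 272 and 319.9 on the SOX4 shRNA arrays. FZD4 kept its call under every alternative run, at 0.46 without background correction. In the authors' log2 values ROR1 differed by 0.36 and LRP5 by 0.37, not past the threshold, and LRP5 also missed it without scrambled 1 (0.22) or without SOX4 shRNA 3 (0.20). Only 2 secreted or membrane inhibitors of the list were measured, and DKK3, a relative of DKK1, rose by 0.73 ± 0.17 (SE, limma adjusted p = 0.0019), but not past the threshold in the authors' values (0.67). DKK3 was detected on 2 of 3 scrambled arrays, and its difference was 0.25 without background correction.

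In the machinery that turns over beta-catenin, 18 genes were measured, of which none rose and 3 fell, or 16.7% called beside 30.6% of all rows tested. They were DVL1, which relays the receptor signal (-0.46 ± 0.16 SE, limma adjusted p = 0.031), SKP1, a ubiquitin ligase subunit (-0.25 ± 0.09 SE, limma adjusted p = 0.029), and PPP2R1A, a phosphatase scaffold (-0.23 ± 0.06 SE, limma adjusted p = 0.0022). DVL1 differed by -0.16 without background correction and by -0.27, not past the threshold, in the authors' values, and its other probes ran up to 0.15. DVL1 lost its call without scrambled 1, 2a or 2b or SOX4 shRNA 2 or 3, with values from -0.48 to -0.43. SKP1 lost it without scrambled 1 or 2a or any SOX4 shRNA array, with values from -0.26 to -0.23. The list's count then fell to 1 without scrambled 1, scrambled 2a, SOX4 shRNA 2 or SOX4 shRNA 3, and was 2 without scrambled 2b or SOX4 shRNA 1. Across the fits without 1 array, 1525 to 1658 of all rows fell, of 12091 to 12222 tested. The list's count was 1 of 30 with no detection filter, beside 1511 of all 34694 rows. It was 2 of 30 in the authors' values (1 with the replicate block), beside 1047 (934) of 34687 rows. The other 15 measured genes of this list did not pass.

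Of 17 measured nuclear cofactors, 4 rose and 3 fell, or 41.2% called beside 30.6% of all rows tested, with a list median of -0.00060. In the authors' log2 values 2 of 21 rose and 2 fell, with no intensity trend 2 rose and 3 fell, and without scrambled 2a and 2b together 4 rose and 1 fell. NLK, a kinase that phosphorylates TCF/LEF proteins, rose by 0.80 ± 0.17 (SE, limma adjusted p = 8.2e-04), from 139, 134 and 148 in deposited intensity to 178, 175 and 181. NLK was detected on 2 of 3 scrambled arrays, and its size depended on how background was treated, with 0.29 without background correction and 1.29 in the authors' values, each past the threshold. TLE1, a co-repressor that binds TCF/LEF proteins, rose by 0.34 ± 0.07 (SE, limma adjusted p = 5.6e-04), and CTBP2, another co-repressor, by 0.39 ± 0.11 (SE, limma adjusted p = 0.0097). HDAC1, a histone deacetylase, fell by 0.30 ± 0.05 (SE, limma adjusted p = 6.6e-05), TBL1X by 0.32 ± 0.08 (SE, limma adjusted p = 0.0028) and AES, now TLE5, by 0.27 ± 0.07 (SE, limma adjusted p = 0.0044). Called cofactors thus stood on both sides. The second CTBP2 probe gave -0.06, the first gave 0.24 without background correction, and CTBP2 did not pass without scrambled 1 (0.26) or in the authors' values (0.06). Without scrambled 1, 2 of 17 genes of the list rose, beside 1627 of all 12159 rows then tested. TLE1 and HDAC1 kept their calls under every alternative run, and AES did not pass in the authors' values (-0.26).

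Of 14 measured genes on a list of reported Wnt targets that leaves out the 10 genes above, 2 rose and 5 fell, beside 15.2% and 15.4% of all rows tested. In the authors' log2 values 1 of 28 rose and 3 fell (1 with the replicate block), and with no intensity trend none rose and 4 fell. Of all 34687 rows of the authors' values 1113 rose and 1047 fell. TNFRSF19, a receptor of the tumour necrosis factor family, fell by 1.01 ± 0.10 (SE, limma adjusted p = 6.9e-09), or 2.02-fold, from 326, 389 and 347 in deposited intensity to 231, 233 and 242. EPHB2, an ephrin receptor, fell by 0.78 ± 0.12 (SE, limma adjusted p = 2.5e-05), and MITF, a transcription factor of the melanocyte lineage, by 0.76 ± 0.16 (SE, limma adjusted p = 7.2e-04). EPHB2 kept its call under every alternative run. Without background correction the differences were -0.66 for TNFRSF19, -0.47 for EPHB2 and -0.35 for MITF. In the authors' log2 values TNFRSF19 differed by -0.50 and MITF by -0.12, neither past the threshold. BMP4, a secreted growth factor, rose by 0.30 ± 0.06 (SE, limma adjusted p = 5.9e-04), but its 3 probes ran from -0.31 to 0.34, and the authors' value was 0.22 and not past the threshold. CCND1, the gene of cyclin D1, rose by 0.15 ± 0.05 (SE, limma adjusted p = 0.015). It did not pass without scrambled 2b (0.13) or SOX4 shRNA 1 (0.14), each of which left 1 of the 14 targets that rose. Of all rows then tested, 1666 of 12146 and 1521 of 12206 rose, in the same order.

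**Figure D5:**
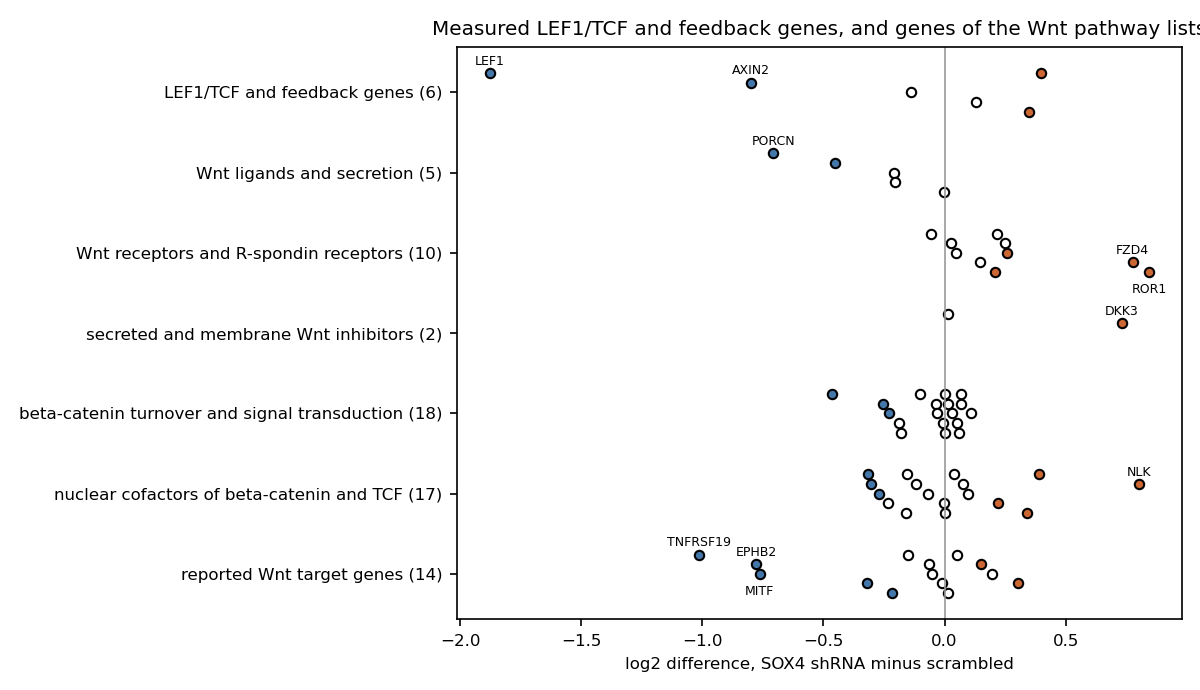
Log2 difference of SOX4 shRNA minus scrambled for the 6 measured LEF1/TCF and feedback genes and for the measured genes of each Wnt pathway list (number in brackets), 1 point per gene. Filled points passed an adjusted p under 0.05 in limma, orange higher and blue lower, and names are given where the size is above 0.6. LEF1 at -1.88 lies furthest from 0, and called receptors lie only above 0.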

How the data were processed

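Total RNA of 6 samples of MDA-MB-231 cells was hybridised to Illumina HumanHT-12 v4 chips, with GenomeStudio 2011.1 named in the submitters' processing notes. The authors deposited probe intensity on a linear scale, not normalized, with a detection p-value beside each. They also deposited log2 values with 1 row per gene symbol, made in ArrayStar with RMA according to the file headers, whose column medians run from 2.80 to 2.82 and whose other scaling the sources used here do not give. The authors' deposited table of linear fold ratios carries another hairpin's name over its second mean, while a header line names the SOX4 samples. Across 22259 genes its log2 fold and the group difference in the log2 values, SOX4 shRNA minus scrambled, correlated at 0.996, so it was read as this comparison.

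Intensities were processed in R 4.3.3 by the neqc function of limma 3.58.1 (background from the detection p-values, offset 16, quantile normalization, log2). A probe was kept where its detection p was below 0.01 on 3 or more of the 6 arrays (15717, or 33.2%), and the brightest kept probe stood for each symbol. This gave 12451 rows, 12069 of them with a symbol, fitted by lmFit and by eBayes with trend, with Benjamini-Hochberg adjustment over all rows or, for single probes, over all kept probes. Background correction stretches log2 differences of dim probes. The fit was tested on simulated data with changes placed only in brighter probes detected on all 6 arrays. Changes in dim probes, such as those of LEF1 and AXIN2, were not simulated.

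The 10 genes, the pathway lists and the tests were chosen with earlier results of these data known. Named pathway genes are, per list, up to 3 raised and 3 lowered with the largest change, past the threshold and without overlap. Newer names of chip symbols, where given, came from RefSeq (GRCh38.p14), and B3GNT1, which matched more than 1 gene there, was left as on the chip. Some genes belong to more than 1 list. Alternatives were the authors' values with and without the replicate number as a block, no background correction, cyclic loess, no intensity trend, dropping the detection filter or requiring all 6 arrays, averaging kept probes, each other kept probe, and leaving out each array. No detection filter with the mean of all probes, and leaving out both scrambled arrays of 1 heading, were added after seeing the data. Python 3.11.15 with matplotlib 3.10.9 drew the figures.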

Additional observations from a re-analysis of the deposited data

How the results depend on the processing

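SOX4, LEF1, AXIN2 and MYC kept their direction and their call under every alternative that gave a value for them, with SOX4 from -3.22 to -1.23. LEF1 has no value with detection required on all 6 arrays or without both scrambled arrays 2a and 2b. It then misses the filter. With detection required on all 6 arrays, 1 of the 5 genes of the set tested fell, beside 1780 of all 10974 rows. AXIN1 lost its call under 4 of 16 alternatives, and DKK1 gained one under 1 of 17. CTNNB1, never called, changed sign in the authors' values and with the block (0.038 each), with the mean of kept probes (0.011), with no filter and the mean of all probes (0.049), without both scrambled arrays 2a and 2b (0.13) and on its other probe (0.16), and the cause was not tested. In the authors' values 1113 genes rose and 1047 fell over 34687 rows. There 1 of 10 genes of the set and 4 of 131 genes of the pathway lists rose. With no filter and the mean of all probes 1219 rose and 1180 fell over 34694 rows. Again 1 of 10 genes of the set and 4 of 131 genes of the lists rose. Without both scrambled arrays 1208 rose and 965 fell, with 1 raised and 1 lowered gene of the set and 7 lowered genes of the lists, and the lone scrambled array was assumed to vary like the others. With no intensity trend 5 of 65 genes of the lists rose, beside 1433 of all 12451 rows.

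In the intensity table a pair of scrambled arrays share 1 replicate number, so the replicate block was fitted on the authors' values, whose samples carry a number each. There 1010 genes rose and 934 fell over 34687 rows, with 1 raised of the 10 genes of the set. Of 131 genes of the lists 4 rose and 6 fell. Over all 34687 rows, deviations of same-numbered samples from their group means correlated at 0.0045, 0.00013 and -0.0058. Rows at background are among these, so effects that same-numbered samples share in fewer genes could be missed. A block for the slide was not fitted, since the files used here name no slides. Dim probes limit what can be seen: 4 of the 10 genes lay at background.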
